A study of Homo sapiens with 24 samples.

Results

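The transcriptional response of SK-N-SH cells to knockdown of FAM167A was compared between 2 ways of lowering the same gene, small interfering RNA (siRNA) and CRISPR interference (CRISPRi). SK-N-SH is a human neuroblastoma line known to hold neuroblast-like cells beside flat, substrate-adherent cells, and FAM167A is named DIORA1 in the study, which concerns its binding to the MRCK kinases and cell motility. The comparison rests on 16 of the 24 samples of the series, chosen by cell line. These were 5 SK-N-SH libraries treated with an siRNA pool against FAM167A, 5 treated with the control siRNA (NTC), 3 SK-N-SH libraries with a CRISPRi guide against FAM167A (sgDIORA1) and 3 with the control guide sgGal4. A further 8 libraries, 4 with sgDIORA1 and 4 with sgGal4 CRISPRi in the neuroblastoma line SK-N-AS, served only as an outside reading of the gene classes. The CRISPRi cells of both groups carry Cas9 fused to the KRAB repressor domain. Doses, times after transfection or transduction, the number of guides and whether cells were clones or pools are not stated in the labels or files read here, and neither is whether replicates were separate cultures, so p-values measure the spread between these libraries alone.

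Both methods lower an mRNA at different steps. An siRNA pool guides Argonaute proteins to the mature transcript, which is cut or destabilised in the cytoplasm for as long as the siRNA lasts. CRISPRi recruits KRAB and its corepressors to the promoter, so that transcription itself is silenced, and repression lasts as long as the repressor is expressed. Each method has its own known side effects, seed matches in unrelated transcripts for siRNA and silencing at other guide sites or neighbouring promoters for CRISPRi. Neuroblastoma cells are known to move between an adrenergic state, held by PHOX2A, GATA and HAND factors, and a mesenchymal state with high levels of matrix, adhesion and actin genes, and SK-N-SH cultures hold both.

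An siRNA library held between 71464698 and 90255175 reads assigned to genes. The range was 11690515 to 21628076 for CRISPRi libraries of SK-N-SH and 29985858 to 104455853 for those of SK-N-AS. The siRNA knockdown libraries 3 and 4 stood apart from knockdown 1, 2 and 5, with a chi-square per degree of freedom over gene counts of 27.33 to 44.56 across these sets, against 7.85 between 3 and 4 and 11.01 to 18.88 among the others. Mitochondrial genes took 6.45% and 6.41% of their reads, against 8.45% to 8.67% in the other siRNA knockdown libraries and 7.83% to 9.07% in siRNA controls. With CRISPRi the share lay between 5.72% and 6.56% after knockdown, above the 4.66% to 5.49% of its controls. The part of these differences in the results was not tested, beyond the counts without knockdown 3 and 4 given below. The experiments also differed in library kit and in the deposited count table, so the method of knockdown and these features cannot be told apart, and only knockdown against the controls of the same experiment was tested. The line is taken from the labels. PHOX2A had control means of 326 CPM (read counts scaled to a common library total) with siRNA and 286 CPM with CRISPRi. The catecholamine enzyme gene TH was near 0 (0.106 and 0.0423 CPM). Mesenchymal markers were also present in these controls, at 668 and 2770 CPM for VIM and 864 and 2470 CPM for FN1. TWIST1 stood at 452 and 239 CPM and SNAI2 at 8.86 and 7.01 CPM. Control levels of the 2 experiments were normalised separately and not tested against each other. In bulk RNA, fewer cells of a kind and less RNA per cell cannot be told apart. Summed CPM of 12 fibroblast and smooth muscle markers, which substrate-adherent SK-N-SH cells may also express, ranged from 2280 to 2590 with FAM167A siRNA and from 2370 to 2610 in its controls, and from 2960 to 3040 with FAM167A CRISPRi against 2400 to 2450 in its controls. Summed epithelial markers (12 genes, 3 of them without reads in CRISPRi) ranged from 179 to 189 CPM with CRISPRi knockdown against 94.3 to 102 in controls, and from 39.4 to 47.3 CPM with siRNA against 38 to 42. Schwann cell and glial markers (12 genes, 4 of them without reads in CRISPRi and 2 with siRNA) ranged from 73.3 to 74.9 against 93.1 to 95.6 CPM with CRISPRi, and from 51.9 to 58 against 60.8 to 67.3 CPM with siRNA. The sum of 12 endothelial markers was 115 to 120 against 91.1 to 113 CPM with CRISPRi and 70.8 to 85.5 against 83.5 to 98.1 CPM with siRNA. The sum of 12 blood markers was at most 2.16 CPM in any SK-N-SH group. The part of such cells in the results was not tested.

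FAM167A itself (ENSG00000154319, GRCh38 chromosome 8, 11421463 to 11475908, minus strand) stood at 187, 193, 168, 201 and 191 CPM in the siRNA controls and at 63.4, 71.4, 57.7, 67.7 and 65.9 CPM with siRNA. In the CRISPRi experiment it stood at 230, 255 and 242 CPM in controls and at 3.79, 3.24 and 2.62 CPM with the guide. The groups were apart in both experiments, and the remaining level differed greatly between them. The difference of responses, defined throughout as the siRNA log2 fold change minus the CRISPRi log2 fold change, was 4.72 ± 0.13 (SE, adjusted p = 2.21e-22). Any comparison below is therefore one of an incomplete and a near-complete loss of the transcript as well as of 2 methods.

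The threshold for a call was 0.05 for the p-value of edgeR's quasi-likelihood test after Benjamini-Hochberg adjustment, with no threshold of fold, and rose or fell is used only of such genes. Of the genes tested, 9.53% were called with siRNA (2.55% higher, 6.98% lower) and 55.8% with CRISPRi (27.7% higher, 28% lower). A difference of responses was called for 7317 genes, 31.4% of those tested, 3811 with the siRNA response above the CRISPRi response and 3506 below. The directions depend on the scaling. With counts scaled by library size alone, 1315 genes were higher and 1068 lower with siRNA, 2791 and 6397 with CRISPRi, and 6080 and 2243 for the difference. The classes below were formed over the 14973 genes tested in every one of these fits, among which 12.6% were called with siRNA (3.33% higher, 9.26% lower), 56.3% with CRISPRi and 45.8% for the difference.

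Genes called by both methods moved in opposite directions more often than in the same one. Of 1403 such genes, 305 (2.04% of all compared) changed in the same direction, 159 up and 146 down, and 1098 (7.33%) changed in opposite directions. Among the latter, 919 fell with siRNA and rose with CRISPRi, and 179 did the reverse. With scaling by library size alone, which moved the median CRISPRi response of all genes to -0.136 and the median difference to 0.22, the opposite class held 583 and 690 genes in these directions. The agreeing class held 199 genes (100 up) without siRNA control 2. Without siRNA knockdown 3 and 4, a setting chosen after seeing the data, 202 genes agreed (99 up), 897 were opposite (802 lower and 95 higher with siRNA), 220 changed with siRNA only (46 up) and 5526 with CRISPRi only. The 179 genes became 97, 101, 117 and 79 without siRNA control 2, 1, 3 or 4, became 101 without siRNA knockdown 3, and became 96 with the replicate number as a block.

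The genes that siRNA lowered mostly rose with CRISPRi. Of 1387 compared genes that fell with siRNA, 919 (66.3%) rose with CRISPRi, against 27.9% of all genes compared, and 146 (10.5%) fell, against 28.4%. Of 498 genes that rose with siRNA, 159 (31.9%) rose and 179 (35.9%) fell with CRISPRi. Of the 84 genes that fell at least 2-fold with siRNA, 62 rose with CRISPRi, 3 fell and 19 were not called. Across the 14973 genes, which are not independent replicates, the log2 responses had a Pearson's r of -0.22 and a Spearman rank correlation of -0.24, given as a description.

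A change in 1 method alone required that the other method was not called and that the difference of responses was called. With CRISPRi alone 5169 genes changed (34.5%), 2123 up and 3046 down. With siRNA alone 273 genes changed (1.82%), 75 up and 198 down. A further 1854 genes were called with CRISPRi and 209 with siRNA without a called difference, and these cannot be assigned to either method. The siRNA-only class held 438 genes with DESeq2 (140 up, 298 down), and 180 genes rose with siRNA alone with library size scaling. The 75 rises became 40 and 34 without siRNA control 2 or 4, became 45 without siRNA knockdown 3, and became 49 with the replicate block. With library size scaling 1237 genes rose and 4531 fell with CRISPRi alone. With siRNA reads thinned to the CRISPRi depth, the classes held 236 agreeing, 892 opposite, 218 siRNA-only and 5227 CRISPRi-only genes.

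**Figure D1:**
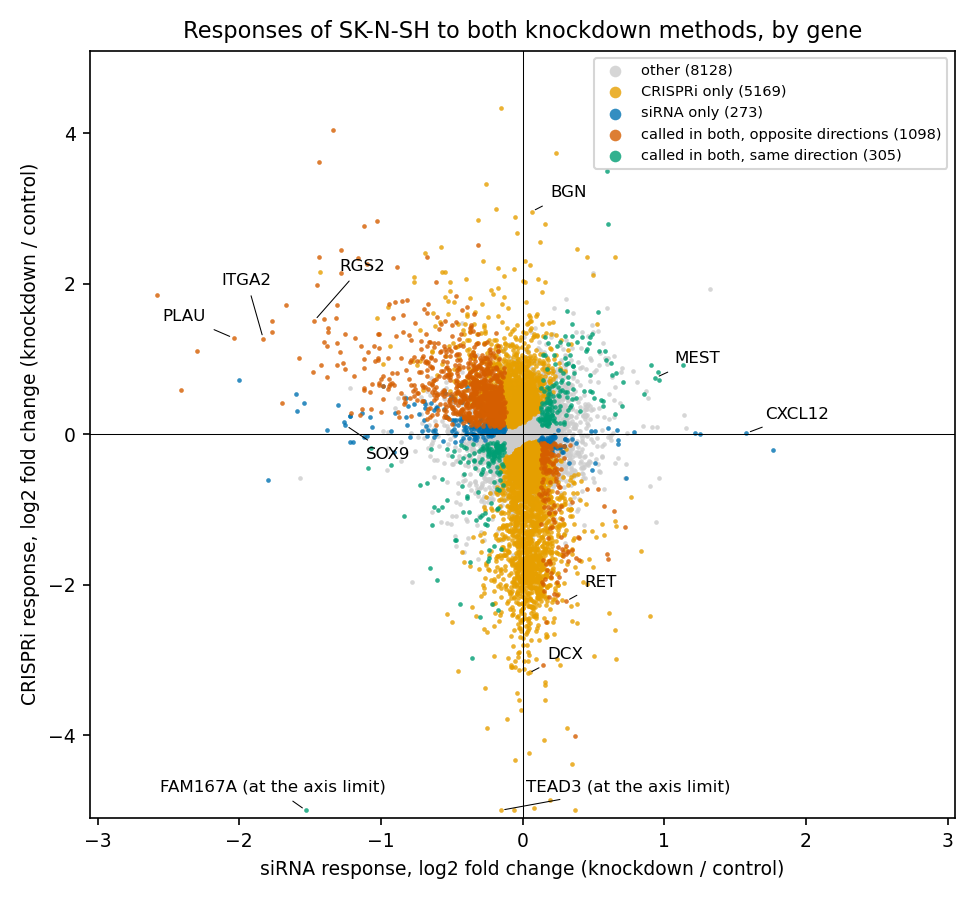
Each point is a gene, placed by its siRNA log2 fold change (horizontal) and its CRISPRi log2 fold change (vertical) in SK-N-SH and coloured by class, with values beyond the axes drawn at the limit. The 919 genes lower with siRNA and higher with CRISPRi fill the upper left, and the 5169 CRISPRi-only genes lie along the vertical axis.

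The 6 agreeing rises with the largest smaller response, among genes with no overlap of libraries in either method, were PRR15, GDF6 (a BMP family growth factor), CPA4 (a secreted carboxypeptidase), MEST (an imprinted hydrolase gene), ALPK2 (an alpha kinase) and TAGLN (transgelin, an actin-bundling smooth muscle protein). MEST (chromosome 7, 130486171 to 130506465) stood at 10.3, 10.8, 9.24, 9.79 and 10.8 CPM in siRNA controls and at 17.7, 21.1, 17.3, 19.7 and 21.6 CPM with siRNA. With CRISPRi it went from 164, 152 and 163 CPM to 267, 272 and 266 CPM. Every knockdown library lay above every control library in both experiments.

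MEST rose 1.91-fold with siRNA (adjusted p = 2.48e-09) and 1.68-fold with CRISPRi (adjusted p = 1.60e-18) by edgeR's quasi-likelihood test, from very different starting levels. Such levels come from separately normalised tables and were not tested against each other. The difference of its responses was 0.20 ± 0.08 (adjusted p = 0.0783) and passed the threshold under some alternatives, among them the fit with each experiment's own spread. GDF6 rose from 1.81 ± 0.336 to 3.39 ± 0.221 CPM with siRNA (SD, n = 5) and from 76.9 ± 4.03 to 145 ± 6.4 CPM with CRISPRi (SD, n = 3). TAGLN rose 1.54-fold with siRNA and 1.93-fold with CRISPRi, with a called difference (-0.31 ± 0.08, adjusted p = 0.00215).

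Among the agreeing genes that fell, FAM167A was followed by ITPR3 (an IP3 receptor calcium channel), MMP3 (stromelysin), VGF (a neurosecretory peptide precursor), RAC2 (a small GTPase of actin control) and ENPP2 (autotaxin, which makes lysophosphatidic acid). VGF (chromosome 7, 101162509 to 101165593) stood at 1450, 1460, 1520, 1450 and 1350 CPM in siRNA controls and at 874, 908, 1020, 934 and 953 CPM with siRNA. With CRISPRi it went from 149, 141 and 144 CPM to 72.4, 75.7 and 72.7 CPM. The groups did not overlap in either method, although the control levels of these separately normalised tables were far apart. ITPR3 fell 1.65-fold with siRNA and 1.59-fold with CRISPRi, and its difference of -0.04 ± 0.14 did not pass the test (adjusted p = 0.903).

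Agreement was mostly of small size. FAM167A was the only gene called in both methods in the same direction that changed at least 2-fold in each, and 21 agreeing genes reached 1.5-fold in each. By contrast, 38 opposite genes reached 2-fold in each method, and all 38 fell with siRNA and rose with CRISPRi. At 1.5-fold in each there were 136 opposite genes, 132 of them in that direction. Of the 305 agreeing genes, 119 still had a called difference in size between the methods. Knockdown and control libraries were fully apart in both experiments for 202 of 305 agreeing and 811 of 1098 opposite genes, against 8.55% of all genes compared (11.3% for siRNA and 61.1% for CRISPRi alone). These calls and that separation use the same libraries.

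The opposite genes that fell with siRNA included secreted proteases, adhesion receptors and signalling genes. PLAU (urokinase, the plasminogen activator; chromosome 10, 73909177 to 73917497) stood at 300, 268, 288, 322 and 256 CPM in siRNA controls and at 60.6, 72.3, 76.1, 72.8 and 67.9 CPM with siRNA. With CRISPRi it went from 127, 113 and 123 CPM to 292, 301 and 284 CPM. The siRNA libraries were thus all low and the CRISPRi libraries all high against their own controls, 4.1-fold and 2.42-fold, with a difference of -3.30 ± 0.10 (adjusted p = 2.48e-18).

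ITGA2, the alpha-2 subunit of a collagen-binding integrin (chromosome 5, 52989326 to 53094779), showed the same pattern. Its siRNA controls stood at 404, 381, 427, 436 and 350 CPM and its siRNA libraries at 105, 119, 117, 114 and 105 CPM. Its CRISPRi controls stood at 101, 97.7 and 106 CPM and its CRISPRi knockdown libraries at 247, 245 and 243 CPM. The groups did not overlap in either experiment, and the difference of responses was -3.10 ± 0.09 (adjusted p = 5.19e-23).

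RGS2, which limits signalling by Gq-coupled receptors, had control levels of 72.5 ± 6.31 CPM with siRNA (SD, n = 5) and 61.2 ± 6.62 CPM with CRISPRi (SD, n = 3), in tables normalised separately. It fell 2.77-fold with siRNA and rose 2.84-fold with CRISPRi. PTGS1 (cyclooxygenase-1) fell 3.19-fold and rose 3.3-fold. The chemokine gene CCL2 fell 2.58-fold and rose 2.57-fold, and the lncRNA gene LINC00702 fell 3.42-fold and rose 2.85-fold. MEGF10, an engulfment receptor gene with low levels, fell 3.42-fold and rose 2.57-fold. The rule that chose these genes favours large responses to both methods, and over the 919 genes of this class the median log2 fold changes were -0.316 with siRNA and 0.518 with CRISPRi.

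The reverse direction held smaller siRNA responses, with a median log2 fold change of 0.184 with siRNA and -0.5 with CRISPRi over the 179 genes. Among its leading genes were TSPAN2 (a tetraspanin), SLIT1 (an axon guidance ligand), ADAMTSL2 (a microfibril-associated protein), PNMA3 and TRIL (an accessory protein of Toll-like receptors). SLIT1 (chromosome 10, 96998038 to 97185920) stood at 4.16, 4.48, 3.64, 3.83 and 5.45 CPM in siRNA controls and at 6.4, 7.35, 5.94, 6.56 and 5.85 CPM with siRNA. With CRISPRi it went from 30.1, 32.3 and 31 CPM to 17.2, 14.4 and 16.7 CPM. Both comparisons were without overlap, 1.49-fold up with siRNA (adjusted p = 0.000577) and 1.94-fold down with CRISPRi (adjusted p = 4.30e-13). The call of PNMA3 with siRNA (adjusted p = 0.0303) was lost without siRNA knockdown replicates 1, 3 or 4 or controls 3, 4 or 5, with thinned reads, without the filter on low counts and with the replicate block.

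**Figure D2:**
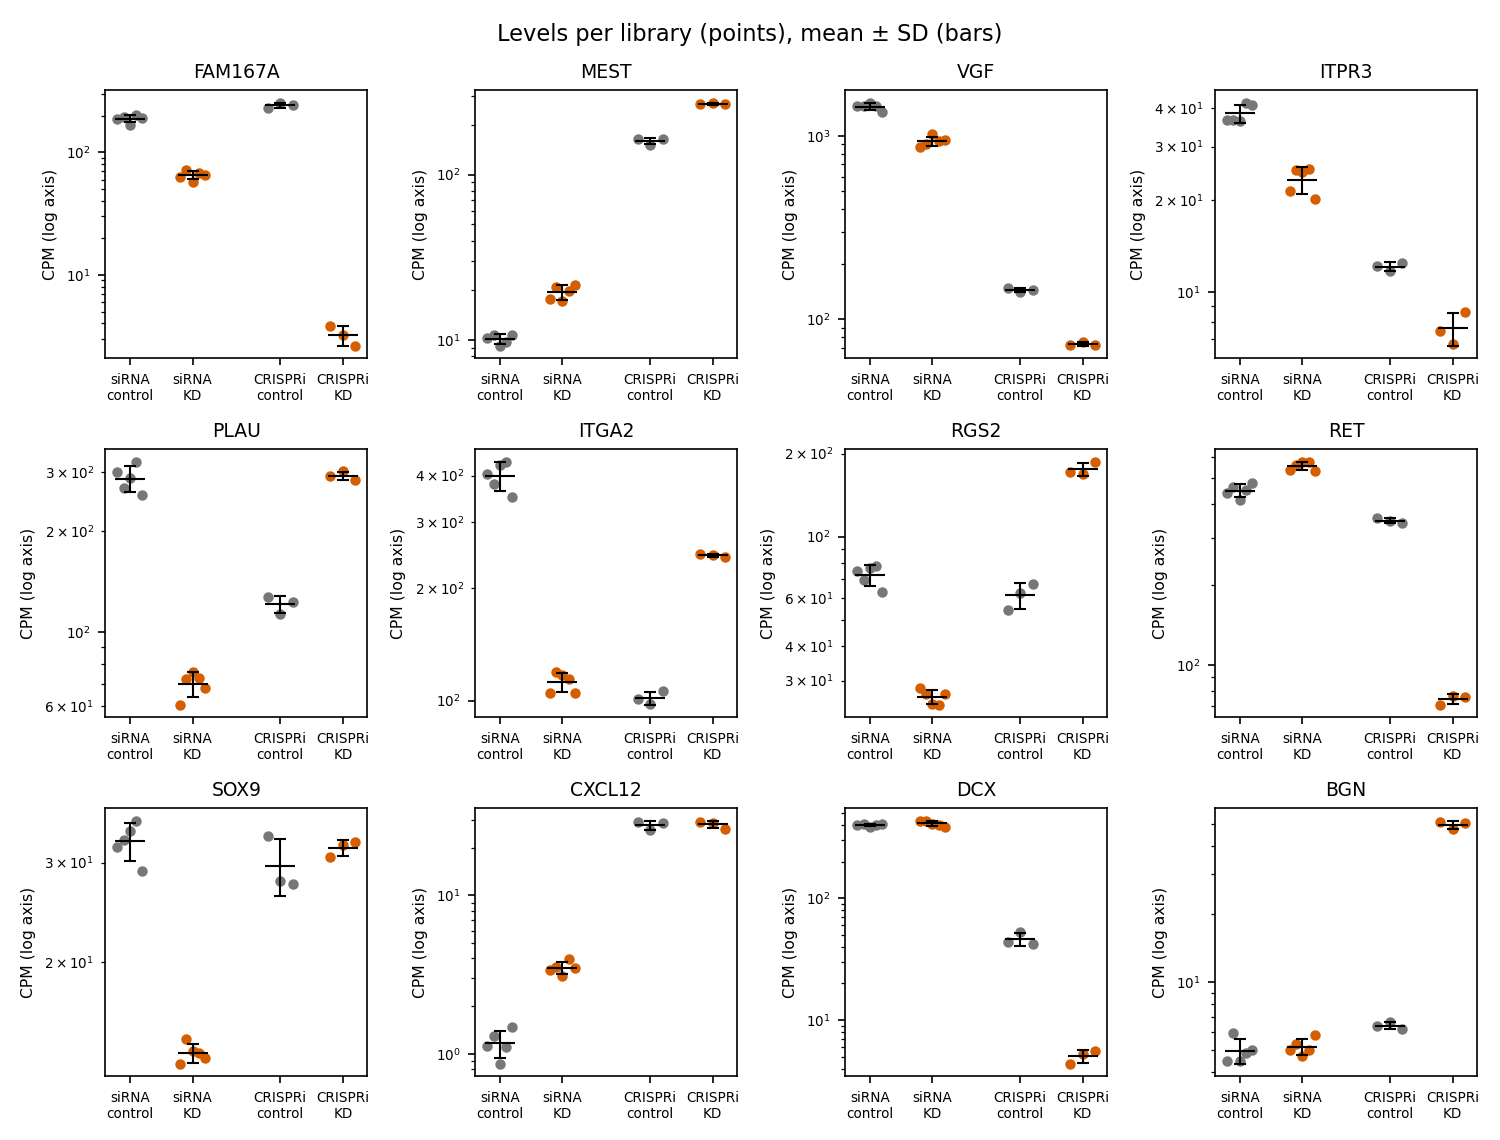
Points are single libraries in CPM on a log axis and bars are group means ± SD, for controls (grey) and knockdown (orange) of 12 genes, with 5 libraries per siRNA group and 3 per CRISPRi group. PLAU, ITGA2 and RGS2 fell with siRNA and rose with CRISPRi, MEST rose with both, and SOX9, CXCL12, DCX and BGN changed with 1 method.

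Genes changed with siRNA only included SOX9, a transcription factor of neural crest and chondrocytes (chromosome 17, 72121020 to 72126420). It stood at 32, 32.9, 34.1, 35.6 and 29 CPM in siRNA controls and at 13.2, 14.6, 13.9, 13.8 and 13.5 CPM with siRNA. With CRISPRi it stood at 33.5, 27.8 and 27.5 CPM in controls and at 30.7, 32.3 and 32.6 CPM with the guide. The siRNA groups were apart and the CRISPRi groups overlapped, with a log2 fold change of -1.25 ± 0.06 against 0.12 ± 0.07 (adjusted p = 0.159) and a difference of -1.35 ± 0.10 (adjusted p = 3.01e-13). Without CRISPRi control 1, SOX9 was called higher with CRISPRi.

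CDCP1 (a Src substrate at the cell surface), IL6R (the interleukin-6 receptor), PHLDA2 (an imprinted growth-limiting gene), SHC4 and PANX2 (a pannexin) completed the 6 leading siRNA-only falls, from 1.77-fold to 2.46-fold. CXCL12, the ligand of CXCR4, rose with siRNA only, from 1.12, 1.29, 0.864, 1.1 and 1.47 CPM to 3.36, 3.55, 3.11, 3.97 and 3.49 CPM. In the separately normalised CRISPRi table it stood far higher, at 28.9, 25.8 and 28.6 CPM in controls and 29.2, 28.8 and 26.4 CPM with the guide, and the groups overlapped. The other leading siRNA-only rises were KLF2 (a Kruppel-like factor), STOX1, GFRA2 (the neurturin co-receptor), TNFRSF11B (osteoprotegerin) and MATN2 (a matrilin). KLF2 and CXCL12 had control levels of 1.25 ± 0.321 and 1.17 ± 0.228 CPM with siRNA (SD, n = 5). Both, like GDF6 above, reached the level needed for naming (a mean of 1 log2 CPM) only through their siRNA knockdown libraries. Genes as low in controls that fell could not be named.

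Genes changed with CRISPRi only were led downwards by TEAD3, a TEAD family factor through which YAP and TAZ act (chromosome 6, 35473597 to 35497076). Its reads numbered 195, 248 and 339 in CRISPRi controls and 1, 0 and 1 with the guide, a control to knockdown ratio of 358 (95% counting interval 98.8 to 2960). With siRNA its 6551 knockdown and 6729 control reads gave a ratio of 1.11 (1.08 to 1.15), which did not pass the edgeR test (adjusted p = 0.18). In SK-N-AS CRISPRi, with the same guide name, 386 reads stood against 7207, a ratio of 22.5 (20.3 to 25). TEAD3 was therefore nearly lost with CRISPRi in both lines and kept with siRNA. These intervals cover counting error only, and whether the guide also acts at TEAD3 was not tested.

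DCX (doublecortin, a microtubule protein of migrating neuroblasts) fell 9.05-fold with CRISPRi, from 43.7, 52.6 and 42 CPM to 4.38, 5.26 and 5.56 CPM. With siRNA it stood at 397, 410, 387, 398 and 408 CPM in controls and at 430, 433, 405, 401 and 386 CPM in knockdown libraries, which overlapped. Other leading falls were SERTM2, NMU (neuromedin U), LAMP5 (a neuronal lysosome-associated protein) and OPRD1 (the delta opioid receptor), between 7.95-fold and 20.2-fold. The leading rises were FAM9C, MFAP5 and BGN (microfibril protein and biglycan of the matrix), SUCNR1 (the succinate receptor), PLAC1 and C1S (a complement protease), between 4.59-fold and 13.4-fold. BGN stood at 6.37, 6.66 and 6.22 CPM in CRISPRi controls and at 51.4, 47.4 and 50.5 CPM with the guide, and at 4.96 ± 0.614 and 5.18 ± 0.441 CPM (SD, n = 5) in siRNA controls and knockdown.

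The MRCK kinases, to which the FAM167A protein binds, showed CRISPRi-only changes, as did 34.5% of all genes compared. CDC42BPA (MRCK alpha) rose 1.41-fold with CRISPRi (adjusted p = 2.43e-12) and had a log2 fold change of -0.05 ± 0.04 with siRNA (adjusted p = 0.553). CDC42BPB (MRCK beta) rose 1.21-fold with CRISPRi and had a difference of -0.29 ± 0.07 (adjusted p = 0.00148), which was lost with library size scaling. CDC42BPG (MRCK gamma) fell 2.75-fold with CRISPRi, with a difference of 1.5 ± 0.18 (adjusted p = 3.10e-08). Among 21 compared members of the list of MRCK kinases and partners, the 3 kinases included, 11 rose and 4 fell with CRISPRi only. Another 2 fell with siRNA and rose with CRISPRi, among them MSN (moesin, a linker of membrane and actin), 1.22-fold and 1.83-fold. Over all genes compared, these shares were 14.2%, 20.3% and 6.14%, so the latter 2 counts of the list lie near them.

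Gene lists of known function were then read against these classes. Each list is described by its counts beside those of all genes compared (7.33% opposite, 2.04% agreeing, 34.5% CRISPRi-only), without a test of the list. In the actomyosin contractility list, 16 of 30 members rose with CRISPRi only, 5 were opposite and 4 rose with both methods. MYLK, the myosin light chain kinase gene, fell 1.28-fold with siRNA and rose 1.87-fold with CRISPRi. TPM1 (tropomyosin 1) rose 1.17-fold and 1.91-fold. CALD1 (caldesmon) and CNN2 (calponin 2) rose 1.87-fold and 1.7-fold with CRISPRi only. Of 30 genes of actin nucleation and protrusion, 15 rose and 5 fell with CRISPRi only and 4 fell with siRNA and rose with CRISPRi.

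Adhesion and matrix genes held many opposite members. In the integrin and focal adhesion list 10 of 30 fell with siRNA and rose with CRISPRi, among them ITGB3 (integrin beta-3, 1.62-fold down and 3.19-fold up) and LIMS1 (PINCH1, 1.29-fold and 2.09-fold), and 11 rose with CRISPRi only. ITGA9 went against the list, with a 5.7-fold fall with CRISPRi only. Of 33 matrix glycoproteins and proteoglycans, 13 fell with siRNA and rose with CRISPRi, 11 rose with CRISPRi only and 5 rose with both. THBS2 (thrombospondin 2) fell 1.86-fold and rose 2.49-fold, and NID2 (nidogen 2) fell 1.54-fold and rose 2.32-fold. FBN1 (fibrillin 1) rose 1.23-fold and 2.48-fold, and the proteoglycan gene DCN (decorin) rose 1.36-fold and 2.16-fold, the former call being lost with thinned reads and without siRNA knockdown 3 and 4. The median log2 fold changes of the list were -0.104 with siRNA and 0.948 with CRISPRi, against -0.00177 and -0.00688 over all genes compared.

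Of 16 collagen genes, 5 were opposite, 6 rose with CRISPRi only and 2 rose with both. COL6A3 (collagen VI) fell 2.02-fold with siRNA and rose 2.54-fold with CRISPRi, COL5A1 rose 1.33-fold and 2.45-fold, and COL3A1 rose 2.85-fold with CRISPRi only. Of 27 matrix proteases and inhibitors, 11 fell with siRNA and rose with CRISPRi. PLAT, the tissue plasminogen activator gene, fell 1.76-fold and rose 3.44-fold, and MMP14, a membrane-bound collagenase gene, fell 1.7-fold and rose 2.04-fold. TIMP3, an inhibitor of metalloproteinases, and the protease gene ADAMTS9 fell 6.08-fold and 3.38-fold with CRISPRi only. The summed fibroblast and smooth muscle markers were also higher with CRISPRi, and RGS5 made up 966 CPM of that sum in CRISPRi controls and 511 CPM with the guide.

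The YAP and TAZ target list was split. ANKRD1 and CCDC80 rose with both methods, among 4 of 22 members, with 1.39-fold and 1.49-fold for ANKRD1. NT5E (CD73) and MYOF (myoferlin) were among 4 that fell with siRNA and rose with CRISPRi, by 1.88-fold and 1.58-fold for NT5E. IGFBP3 (an IGF-binding protein) fell with both, 2.13-fold and 1.36-fold, and 9 members rose with CRISPRi only. Of 23 Hippo pathway genes, 5 fell with siRNA and rose with CRISPRi, and the effector genes YAP1 and WWTR1 (TAZ) fell 1.3-fold and 1.53-fold with siRNA and rose 1.7-fold and 1.99-fold with CRISPRi. Of the TGF-beta list, 5 of 23 were opposite, among them TGFB1 (1.67-fold down, 1.96-fold up) and its receptor TGFBR2 (1.47-fold down, 1.42-fold up).

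The cell-state lists moved differently. Of 25 adrenergic genes, 17 fell with CRISPRi only, 4 rose with siRNA and fell with CRISPRi, and 2 fell with both. TBX2 went against the list by a rise with CRISPRi only. The median log2 fold changes of the list were 0.0763 with siRNA and -1.64 with CRISPRi. RET, a receptor tyrosine kinase of the sympathetic lineage (chromosome 10, 43077027 to 43130351), stood at 440, 463, 416, 454 and 480 CPM in siRNA controls and at 538, 561, 578, 576 and 532 CPM with siRNA. With CRISPRi it went from 356, 345 and 341 CPM to 70.8, 76.7 and 75.6 CPM. Neither comparison overlapped, and RET rose 1.24-fold and fell 4.67-fold. GATA2 and PHOX2A, which hold the adrenergic state, fell 4.22-fold and 3.43-fold with CRISPRi only, although PHOX2A was also called higher with siRNA under library size scaling. Under that scaling, 9 of the 25 adrenergic genes rose with siRNA and fell with CRISPRi.

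Of 31 mesenchymal identity genes, 10 fell with siRNA and rose with CRISPRi, 12 rose with CRISPRi only and 2 fell with siRNA only, with medians of -0.243 and 0.646. CD44, a hyaluronan receptor, fell 3.26-fold with siRNA and rose 1.33-fold with CRISPRi. PRRX1, a transcription factor of the mesenchymal state, fell 1.21-fold and rose 2.3-fold. With CRISPRi, 4 of the 31 members went against the list and were lower. Among them, FOSL1, an AP-1 subunit gene, fell with both methods, 1.57-fold and 1.14-fold, and its CRISPRi call was lost without knockdown replicate 1. The marker TWIST1 fell with CRISPRi only, from a mean of 239 CPM in controls to 157 CPM with the guide. Thus mesenchymal members that were called with siRNA fell, and most of those called with CRISPRi rose.

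Of 30 neurite and neuronal differentiation genes, 22 fell with CRISPRi only. ELAVL4 (an RNA-binding protein of neurons), L1CAM (an adhesion molecule) and DPYSL5 (a collapsin response protein) fell 4.31-fold, 3.63-fold and 4.78-fold, and their siRNA log2 fold changes lay between 0.01 and 0.11. Against the list, 6 of the 30 members rose with CRISPRi. Of these, MAP1B and DPYSL3 rose with CRISPRi only, and MAP1A, SYT1, SCG2 and UCHL1 also fell with siRNA. Axon guidance genes were mixed, with 9 of 31 opposite and 10 lower with CRISPRi only. NRP1 (neuropilin 1) fell 1.91-fold with siRNA and rose 1.59-fold with CRISPRi, SEMA5A fell 1.39-fold and rose 2.23-fold, and the netrin receptor gene UNC5B fell 3.37-fold with CRISPRi only. CDH2 (N-cadherin) fell 1.38-fold and rose 1.98-fold.

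Inflammatory genes held many opposite members. Of 20 NF-kB and inflammatory genes compared, 9 fell with siRNA and rose with CRISPRi, with medians of -0.573 and 0.225, and 2 fell and 1 rose with siRNA only. NFKBIZ (an atypical I-kappa-B protein) fell 1.61-fold and rose 2.51-fold, CSF1 (the macrophage growth factor) fell 1.56-fold and rose 1.48-fold, and RELB (an NF-kB subunit) fell 1.47-fold and rose 1.5-fold. Of 28 interferon and nucleic acid sensor genes, 1 was higher with siRNA against its siRNA-treated controls, near the 3.33% of all genes. With CRISPRi 15 were higher and 6 lower, against 27.9% and 28.4% of all genes compared. OAS3 (an oligoadenylate synthetase) fell 4.09-fold and SAMD9L rose 1.71-fold with CRISPRi only. Of 20 antigen presentation genes 6 were opposite, among them HLA-E, 1.32-fold down with siRNA and 1.62-fold up with CRISPRi.

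Lysosome and autophagy genes held 16 opposite members of 29. CTSB (cathepsin B) fell 1.48-fold and rose 1.45-fold, LAMP1 fell 1.2-fold and rose 1.52-fold, and GPNMB, a lysosomal and melanosomal glycoprotein gene, fell 1.25-fold and rose 1.75-fold. Of 29 p53 targets, 13 were opposite and 4 fell with siRNA only. BTG2, an antiproliferative gene, fell 2.3-fold with siRNA only (it was also called lower with CRISPRi without CRISPRi control 1 or with library size scaling), and PHLDA3, an inhibitor of AKT, fell 1.41-fold and rose 1.28-fold. With library size scaling, 12 of 27 matrix protease and inhibitor genes were opposite, and 12 lysosome genes and 8 p53 targets fell with siRNA and rose with CRISPRi.

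Lists of growth and metabolism were read next. Of 36 DNA replication genes, 32 fell with CRISPRi only, MCM3 (a subunit of the replicative helicase) by 1.63-fold. Of 32 mitosis genes, 16 fell with CRISPRi only and 4 rose with siRNA and fell with CRISPRi. Among these 4 was TOP2A (topoisomerase II alpha, 1.11-fold up and 1.19-fold down). The siRNA call of TOP2A was lost without siRNA knockdown 1 or 3 or controls 2, 3, 4 or 5. With library size scaling, 10 mitosis and 7 DNA replication genes rose with siRNA and fell with CRISPRi. With DESeq2 these counts were 2 and 3. Of 48 cytosolic ribosomal protein genes, 21 fell with CRISPRi only and 26 were called with CRISPRi without a called difference. Of 27 sterol synthesis genes 11 fell with CRISPRi only, and of 36 nuclear genes of oxidative phosphorylation 4 fell and 3 rose with CRISPRi only. The median CRISPRi log2 fold change of ribosomal protein genes was -0.313 and that with siRNA was -0.0806. Without siRNA knockdown 3 and 4, the siRNA median was 0.0432 and 41 ribosomal protein genes fell with CRISPRi only. That count was 34 with library size scaling and 17 with the replicate block, so this split depends on libraries and scaling.

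Early-response and stress genes moved both ways with CRISPRi, while nearly all of those called with siRNA fell. With siRNA, 10 of 25 immediate early genes were lower and 1 was higher. Of 35 hypoxia and glycolysis genes 8 were lower with siRNA, as were 10 of 30 unfolded protein and stress genes, and none was higher. Over all genes compared, 9.26% were lower and 3.33% higher with siRNA. Of 25 immediate early genes, 4 were opposite, 3 fell with both and 7 fell with CRISPRi only. IER3 fell 1.85-fold and rose 4.65-fold, KLF6 fell 1.32-fold and rose 1.59-fold, and MYC and EGR1 fell 2.04-fold and 2.03-fold with CRISPRi only. The median difference of this list changed from -0.0383 to 0.132 with library size scaling. Of 35 hypoxia and glycolysis genes, 5 were opposite, among them CA12 (a carbonic anhydrase, 4.92-fold down and 2.16-fold up) and the glucose transporter gene SLC2A3 (1.61-fold and 1.94-fold). EDEM1, which clears misfolded glycoproteins, fell 1.43-fold and rose 1.38-fold among 7 opposite members of 30 unfolded protein and stress genes.

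Genes of the knockdown machinery were read beside these. Opposite members were no more frequent here than among all genes compared (7.33%), with 1 of 17 RNA interference genes (5.88%) and 1 of 25 genes of KRAB corepression and heterochromatin (4%). The former was AGO2, the slicing Argonaute, which rose 1.22-fold with siRNA and fell 1.11-fold with CRISPRi (adjusted p = 0.0352). Its CRISPRi call was lost in DESeq2, without the filter on low counts and without any of 4 CRISPRi libraries (knockdown 1 or 3, control 1 or 2). Of the 25 KRAB corepression and heterochromatin genes, 7 fell and 5 rose with CRISPRi only, against 20.3% and 14.2% of all genes compared. CBX5 (HP1 alpha) rose 1.1-fold with siRNA and fell 1.2-fold with CRISPRi, and DNMT1 fell 1.24-fold with CRISPRi only. The siRNA call of CBX5 was lost with the replicate block and without siRNA knockdown 1, 3 or 4 or control 1, 2, 3 or 4.

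A class of change by 1 method alone was not firm for every gene named. Of the genes changed with CRISPRi only, MFAP5, CALD1, ADAMTS9, GATA2, ELAVL4 and DNMT1 were also called with siRNA in DESeq2 and under library size scaling, and MCM3 was under the latter. The same held for MFAP5 without siRNA control 4, ADAMTS9 without siRNA knockdown 5, DNMT1 without siRNA control 5, CNN2 without siRNA knockdown 2 and ELAVL4 without siRNA knockdown 3 and 4. Of the genes changed with siRNA only, KLF2 and PHLDA2 were also called with CRISPRi without CRISPRi control 1, and STOX1 without CRISPRi control 2.

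**Figure D3:**
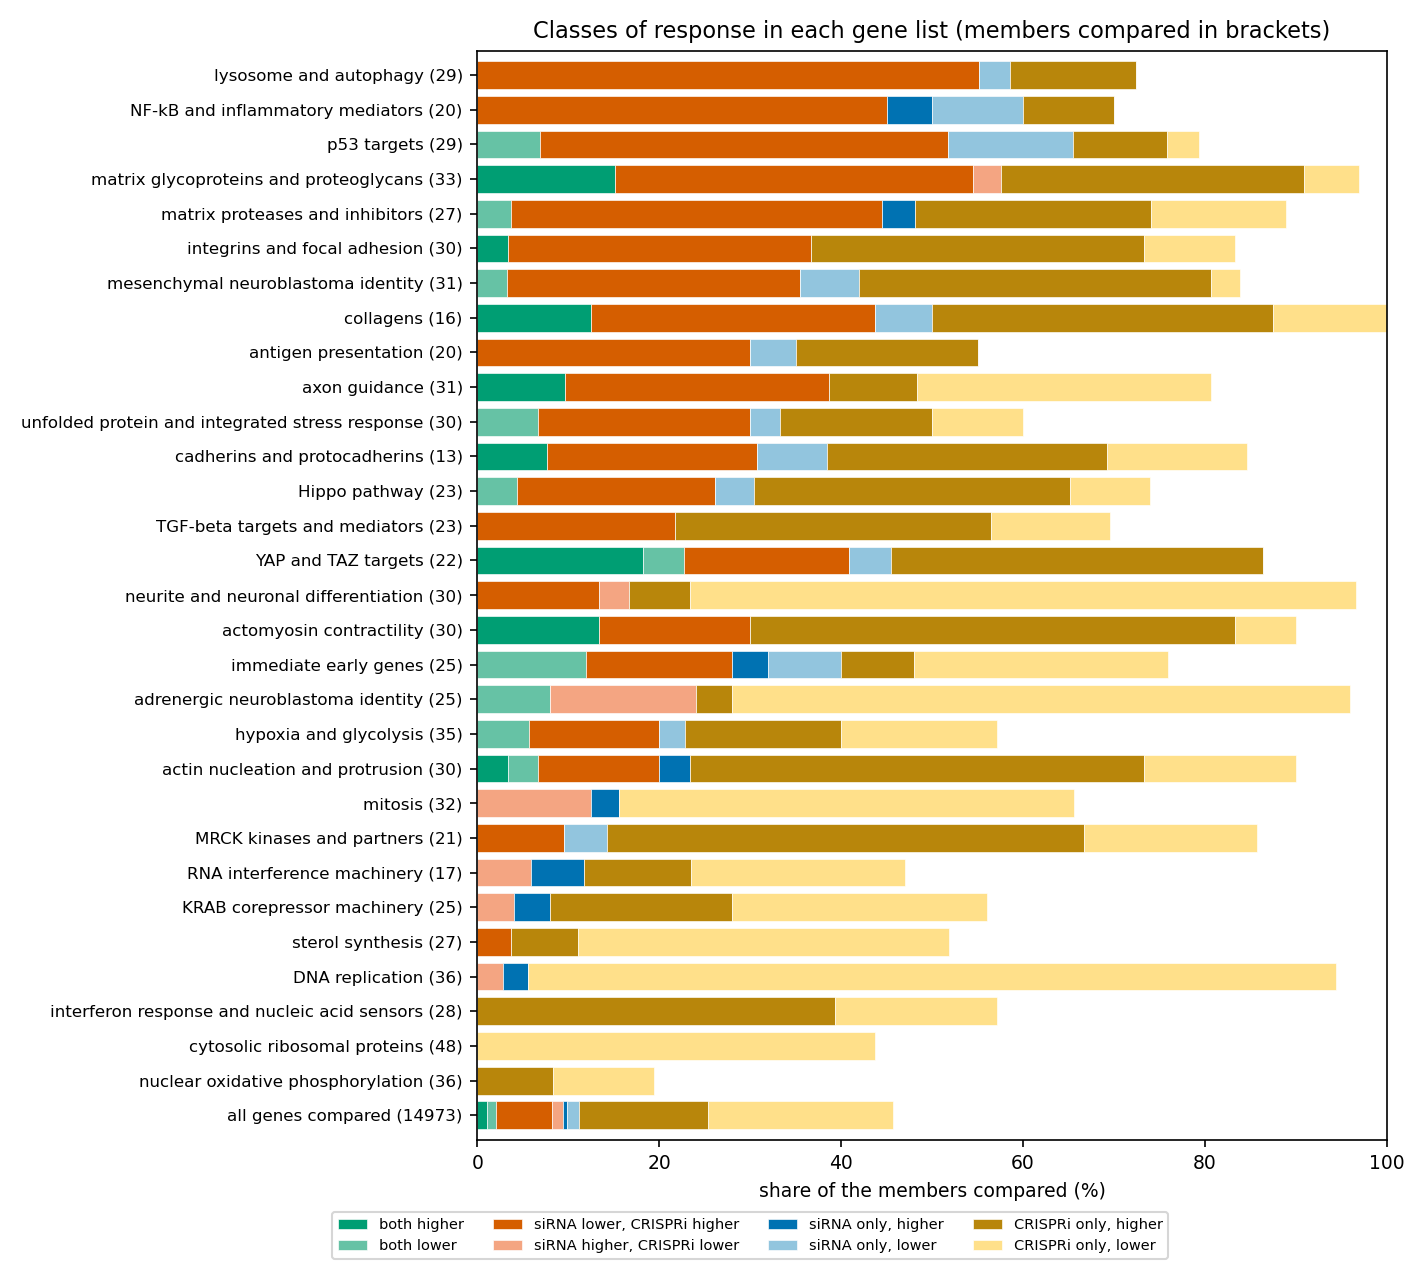
Bars give, for each gene list, the share of compared members (in %) in each class of response, with the number compared in brackets and all 14973 genes in the lowest bar. Lysosome, NF-kB, p53 and matrix lists have long segments of genes lower with siRNA and higher with CRISPRi, and DNA replication, adrenergic and neurite lists are mostly lower with CRISPRi only.

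The classes differed in level as well. Split into equal groups of 4991 genes by mean level, the opposite class took 3.49% of the lowest, 7.21% of the middle and 11.3% of the highest group, and the agreeing class took 0.781%, 2.38% and 2.95%. Read depth limits what can be called among low genes. The siRNA-only share was nearly level at 1.54%, 2% and 1.92%. Protein-coding genes made up 95.8% of opposite and 98% of agreeing genes, against 85.6% of all compared.

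Promoter sequence was read for members of the classes that move together, as a description of letters and not of binding. RefSeq promoters (GRCh38.p14, 250 bases before the start) were matched by symbol for 11185 of the 14973 genes. The AP-1 motif TGANTCA, which reads alike on both strands, was in 3.81% of all these promoters, in 5.71% of those lower with siRNA and higher with CRISPRi, in 8% of those lower with siRNA only and in 3.02% of those lower with CRISPRi only. Its share was 5.47% and 6.84% for agreeing rises and falls, 2.16% for the reverse opposite class and 4.66% for rises with CRISPRi only. None of the 62 matched rises with siRNA only held it. The AP-1 motif stood in 12 of 150 falls with siRNA only, 8 of 117 agreeing falls and 3 of 139 reverse opposite genes. Such shares rest on few promoters, and no share was tested. The TEAD motif GGAATG, searched on both strands (CATTCC on the other), was in 9.32% of all promoters. Its share was 10.9% and 10.3% for agreeing rises and falls, 10.5% and 6.47% for opposite genes lower and higher with siRNA, 12.9% and 10% for rises and falls with siRNA only, and 9.44% and 7.96% for those with CRISPRi only. The NF-kB motif, on both strands, was in 5.93% of all promoters. Its share in the same order was 3.91% and 2.56%, 8.3% and 5.76%, 6.45% and 4.67%, and 6.9% and 6.38%. It can share letters with GGAATG, and in the promoters printed here no matches overlap. A pair of agreeing genes and a pair of opposite genes are shown because each holds a motif of the factors named above, with matches in capitals, in the gene's direction. ANKRD1 (chr10:90921088-90921337, minus strand) has AP-1 195 and TEAD 220 and 128 bases before its start, and CPA4 (chr7:130292911-130293160, plus strand) has AP-1 48 and 15 and TEAD 134 bases before. THBS2 (chr6:169253847-169254096, minus strand) has TEAD 103 and 91 bases before, and NFKBIZ (chr3:101827740-101827989, plus strand) has NF-kB 223 bases before.
ANKRD1: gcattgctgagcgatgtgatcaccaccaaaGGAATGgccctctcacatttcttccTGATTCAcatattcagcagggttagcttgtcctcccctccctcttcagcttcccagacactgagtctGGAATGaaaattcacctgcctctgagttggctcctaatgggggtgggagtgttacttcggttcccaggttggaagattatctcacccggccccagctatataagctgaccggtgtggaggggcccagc
CPA4: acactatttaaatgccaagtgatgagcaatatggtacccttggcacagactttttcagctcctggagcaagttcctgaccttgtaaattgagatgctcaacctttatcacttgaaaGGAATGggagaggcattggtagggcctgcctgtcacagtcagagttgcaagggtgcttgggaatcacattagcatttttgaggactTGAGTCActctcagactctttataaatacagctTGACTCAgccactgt
THBS2: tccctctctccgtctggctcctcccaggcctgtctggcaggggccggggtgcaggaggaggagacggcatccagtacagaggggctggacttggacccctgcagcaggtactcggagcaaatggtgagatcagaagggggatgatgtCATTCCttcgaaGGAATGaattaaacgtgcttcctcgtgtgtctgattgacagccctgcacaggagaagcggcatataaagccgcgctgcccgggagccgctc
NFKBIZ: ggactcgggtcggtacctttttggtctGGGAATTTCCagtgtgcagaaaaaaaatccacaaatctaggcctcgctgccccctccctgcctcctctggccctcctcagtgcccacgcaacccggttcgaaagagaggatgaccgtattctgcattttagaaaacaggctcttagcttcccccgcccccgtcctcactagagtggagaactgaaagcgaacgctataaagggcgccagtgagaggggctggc
TEAD-type matches stand before ANKRD1, which rose with both methods, and before THBS2, which moved in opposite directions. As these promoters were chosen for their motifs, their matches tell nothing about either class.

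SK-N-AS, whose 8 CRISPRi libraries were not used to form the classes, gave an outside reading. FAM167A fell 9.32-fold in this line. Among the compared genes tested there, 36.5% were called (17.1% higher, 19.5% lower). Of 877 genes lower with siRNA and higher with CRISPRi in SK-N-SH, 449 (51.2%) were higher and 96 (10.9%) lower in SK-N-AS. Of 168 genes of the reverse class, 15 (8.93%) were higher and 66 (39.3%) lower. In all, 626 opposite genes were called in SK-N-AS and 515 of them (82.3%) had the sign of the SK-N-SH CRISPRi response. Both CRISPRi experiments share a method and a guide name, and whether line or method sets the sign was not tested.

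Agreeing genes that rose were higher in SK-N-AS in 63 of 152 cases (41.4%) and lower in 22 (14.5%). Those that fell were lower in 47 of 140 (33.6%) and higher in 38 (27.1%). Whether rises and falls differ in this was not tested. The CRISPRi-only classes were higher in 683 of 2012 (33.9%) and lower in 1075 of 2722 (39.5%) in their own directions. Of the 189 siRNA-only falls tested there, 56 (29.6%) were higher and 21 (11.1%) lower. The siRNA-only rises were called in equal numbers, 10 of 72 (13.9%) each way.

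Single genes followed and left these patterns. MEST rose 1.43-fold in SK-N-AS, so that it rose in all 3 experiments. PLAU and ITGA2 rose 2.29-fold and 1.53-fold, with the sign of CRISPRi in SK-N-SH. RGS2 and PTGS1 fell 1.31-fold and 1.29-fold, with the sign of siRNA. CXCL12 rose 3.74-fold (9.71, 9.6, 9.99 and 10.5 CPM in controls, 38, 36.8, 36.9 and 37.5 CPM with the guide) and SOX9 fell 1.68-fold, as both had with siRNA alone in SK-N-SH. ITPR3, which fell with both methods in SK-N-SH, rose 1.27-fold.

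**Figure D4:**
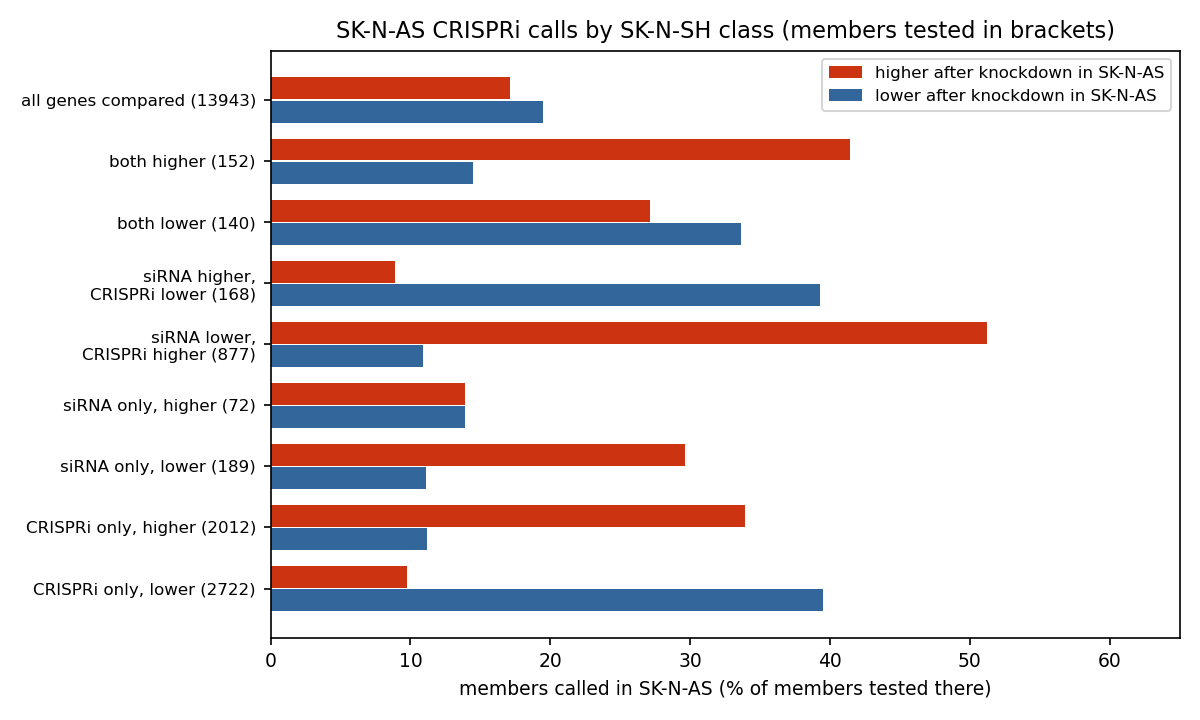
Bars give the share of the members of each SK-N-SH class (in % of those tested, numbers in brackets) that were called higher (red) or lower (blue) after CRISPRi knockdown in SK-N-AS. Genes lower with siRNA and higher with CRISPRi were mostly higher (51.2% against 10.9%), and siRNA-only rises were called equally in both directions (13.9%).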

How the data were processed

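RNA was measured in SK-N-SH after siRNA or CRISPRi knockdown of FAM167A and in SK-N-AS after CRISPRi. The authors deposited counts, as whole reads per gene and library, with 1 table per experiment. The submitters' processing notes name bcl2fastq 2.20.0.422 and 2.20, CASAVA, FastQC 0.11.8, STAR 2.6.1d, featureCounts 1.5.1 and GRCh38, and which served which experiment, the annotation release and the strand setting are not stated in the labels or headers read here. Reads of antisense or overlapping genes can therefore not be told apart with certainty. The CRISPRi libraries were made with a stranded kit, per the labels' protocols, which name both a stranded and a non-stranded route for siRNA.

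The SK-N-SH tables hold 58735 and 61541 genes and were joined on 58366 shared Ensembl IDs. Each experiment was fitted alone in edgeR 4.0.16 (R 4.3.3; filterByExpr with minimum count 10 and minimum total 15, TMM scaling, robust quasi-likelihood test), and the difference of responses as the interaction in 1 model over the 16 libraries, with Benjamini-Hochberg adjustment over all 21018, 15391 and 23287 genes tested. Only in the siRNA fit were 6045 genes tested, of which 119 were called, and only in the CRISPRi fit 418, of which 156 were called. These were left out of the classes. The fits and classes were tried on simulated data in which every changed gene moved 2-fold and all genes had the same spread. Most changes called here are smaller, and the simulation does not cover them. CPM are scaled by TMM factors within an experiment. Standard errors were taken from estimate and test statistic. Gene positions are those deposited with the siRNA counts, on GRCh38, and their annotation release is not stated.

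Named were FAM167A, the MRCK genes, 6 genes per class (largest smaller response for genes called in both, at 1 log2 CPM or more, otherwise largest difference, with libraries apart where called), and per list up to 4 with the smallest p of the difference and up to 2 agreeing. The level of 1 log2 CPM was required in every class, as a mean over knockdown and control libraries of each experiment. A gene low in controls could therefore pass by its own rise. PHOX2A, TH, VIM, FN1, TWIST1 and SNAI2 were named as markers. Some items are not reported here. The members, lists and rules were chosen with earlier results of these data known. Alternatives were DESeq2 1.42.0, other scalings and filters, thinned reads, a replicate block, separate spreads and left-out libraries.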

Additional observations from a re-analysis of the deposited data

Results flagged for a closer look

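The difference of responses, called for 7317 genes, is listed because the effects of the methods, which lowered FAM167A to different degrees, differed in the test of the difference itself. The leading genes named from each opposite class have knockdown libraries on opposite sides of their own controls. On the log2 scale, siRNA minus CRISPRi, the differences were 2.19 for TSPAN2, 1.54 for SLIT1, 2.08 for ADAMTSL2, 1.80 for PNMA3 and 1.77 for TRIL, which were higher with siRNA. They were -3.39 for PTGS1, -3.28 for LINC00702, -2.97 for RGS2, -2.72 for CCL2, -3.10 for MEGF10 and -3.30 for PLAU, which were lower with siRNA.

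A library far from the rest of its group by Dixon's test was found in 6 of 252 groups of 4 or 5 libraries screened for the named genes, and chance gives such a library in about 1 in 20 groups. With siRNA, GDF6 was highest in knockdown 2 at 3.77 CPM and PRRX1 was highest in knockdown 5 at 307 CPM. In siRNA controls TRIL was lowest in control 3 at 9.9 CPM, and ITGB3 and TGFB1 were highest in control 4 at 7.34 and 105 CPM. In SK-N-AS, PTGS1 was highest in knockdown 3 at 12.2 CPM.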

How the results depend on the processing

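Every named gene kept the direction of each called response under the alternatives run, and of these values 11173 kept their side of the threshold, 151 lost and 76 gained a call. Genes changed with siRNA only numbered 438 with DESeq2 against 273, of which 268 were shared. With library size alone, 206 of 305 agreeing, 762 of 1098 opposite, 83 of 273 siRNA-only and 3833 of 5169 CRISPRi-only genes kept their class, so membership rests on the scaling. Leaving out 1 library at a time, the difference of responses was called for 6418 to 7483 genes, siRNA for 1406 to 2515, CRISPRi for 7776 to 8449, agreeing genes numbered 199 to 354, opposite genes 809 to 1283, siRNA-only genes 194 to 351 and CRISPRi-only genes 4562 to 5332, and 75 to 126 agreeing genes had a call of their direction in SK-N-AS, against 110. Without siRNA knockdown 3 and 4 together, chosen after seeing the data, 202 genes agreed and 74 had that call in SK-N-AS. Depth limits calls of low genes most in the CRISPRi experiment.

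Whether replicate numbers pair the libraries is not stated in the labels. Same-numbered knockdown and control libraries had correlations of their deviations from -0.261 to 0.0721 with siRNA and from -0.0199 to 0.0419 with CRISPRi. These low values do not settle the design, and the main fits did not pair libraries. The highest among all siRNA pairs was 0.388, between knockdown 4 and control 5, and without both 306 genes agreed, 1194 were opposite and 304 changed with siRNA only. With the number as a replicate block, 6839 genes had a called difference, 1532 were called with siRNA and 8460 with CRISPRi, and the classes held 220 agreeing, 870 opposite, 216 siRNA-only and 5127 CRISPRi-only genes, with 80 agreeing calls in SK-N-AS.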
